A study of Homo sapiens with 16 samples.

Results

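The 37 genes of the human mitochondrial genome are 13 protein-coding genes, 2 rRNA genes and 22 tRNA genes, and they were taken as every gene placed on the mitochondrial chromosome, 37 of the 58735 genes measured. By strand, 28 are listed on the heavy-strand transcript (12 mRNAs, 2 rRNAs and 14 tRNAs) and 9 on the light-strand transcript (the mRNA MT-ND6 and 8 tRNAs). RNA sequencing covered NCI-H1975 and HCC827, both established lines from human lung adenocarcinoma. The 3 NCI-H1975 groups of 4 libraries each are controls, cells given magnolin, which is a plant lignan, and cells given the chloroform fraction of dried magnolia buds (Flos Magnoliae). HCC827 is represented by 2 libraries of parental cells, and afatinib-resistant HCC827 cells were not analysed here. The labels give all NCI-H1975 and parental HCC827 cells the genotype WT, and they give no dose, no exposure time and no vehicle, so the treatments may differ in each of these. The values come from 3 separately normalized tables: set A holds replicates 1 and 2 of the NCI-H1975 groups, set B holds replicates 3 and 4, and the third holds HCC827. Since no label says that replicates were separate cultures, the p-values refer to library-to-library spread, which may be technical. In such bulk samples, fewer cells of a kind and less RNA per cell cannot be told apart.

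Each mitochondrion carries many copies of a small circular genome, and its genes are transcribed by a dedicated polymerase, POLRMT, with the DNA-packaging factor TFAM and the initiation factor TFB2M. Each strand is copied as a long polycistronic RNA, and tRNAs between the other genes serve as the marks at which nucleases cut it into single RNAs. The mRNAs then receive poly(A) tails, and the LRPPRC and SLIRP proteins hold many of them stable, so RNAs from 1 precursor can reach different levels. The mRNAs encode core subunits of respiratory complexes I, III and IV and of ATP synthase, and the rRNAs and tRNAs serve only the ribosomes inside the organelle.

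Values are FPKM (reads per kilobase of gene and per sequencing depth, as deposited), which allow levels of different genes to be compared per length. Reads rebuilt from the FPKM came to 18392377 to 21312671 per library in set A, 15962587 to 17039090 in set B and 15863416 to 16383921 in HCC827. The replicate 1 libraries of all 3 NCI-H1975 groups stand apart from the other 9: EPCAM, an epithelial adhesion protein, was at 172 to 193 FPKM in them and at 7.65 to 14.4 FPKM in replicates 2 to 4, and the keratin KRT7 was at 321 to 406 against 46.9 to 71.0 FPKM. All 6 epithelial markers reached 1 FPKM in both libraries of every group and set, and none of 5 leukocyte markers did so in any. The leukocyte marker PTPRC was at 0 to 0.0126 FPKM, but CD79A reached 3.73 FPKM in an NCI-H1975 library. In set A the leukocyte markers summed to 0.478 to 3.81 FPKM in controls, 0.286 to 3.32 with magnolin and 0.110 to 3.82 with the fraction. In set B the summed epithelial markers were 613 to 619 FPKM in controls, 440 to 445 with magnolin and 410 to 449 with the fraction, and 6 fibroblast and endothelial markers summed to 23.3 to 30.3, 16.2 to 16.8 and 10.6 to 11.1 FPKM. Their part in the results below was not tested. Values are listed in the order of the replicate numbers, and libraries with the same number were treated as paired where a replicate block is named.

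Mitochondrial genes took 5.83 to 9.42% of the reads of a library. Their share in set B was 5.84 and 5.83% in the controls, 6.40 and 6.38 with magnolin and 8.17 and 7.04 with the fraction, so both fraction libraries lay above all other libraries of the set. In set A it was 9.42 and 8.06% in the controls, 8.38 and 8.80 with magnolin and 7.60 and 8.42 with the fraction, and the groups overlapped. Of the 3 classes the rRNAs differed most in proportion between fraction and control in set B, where their share was 0.773 and 0.750% in the controls, 0.830 and 0.858 with magnolin and 1.66 and 1.40 with the fraction. In set A the rRNA share was 1.30 and 1.37% in the controls, 1.08 and 1.52 with magnolin and 0.900 and 1.12 with the fraction, so there both fraction libraries lay below both controls. mRNAs took 5.04 to 8.09% of all reads and tRNAs 0.0289 to 0.0520%.

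**Figure D1:**
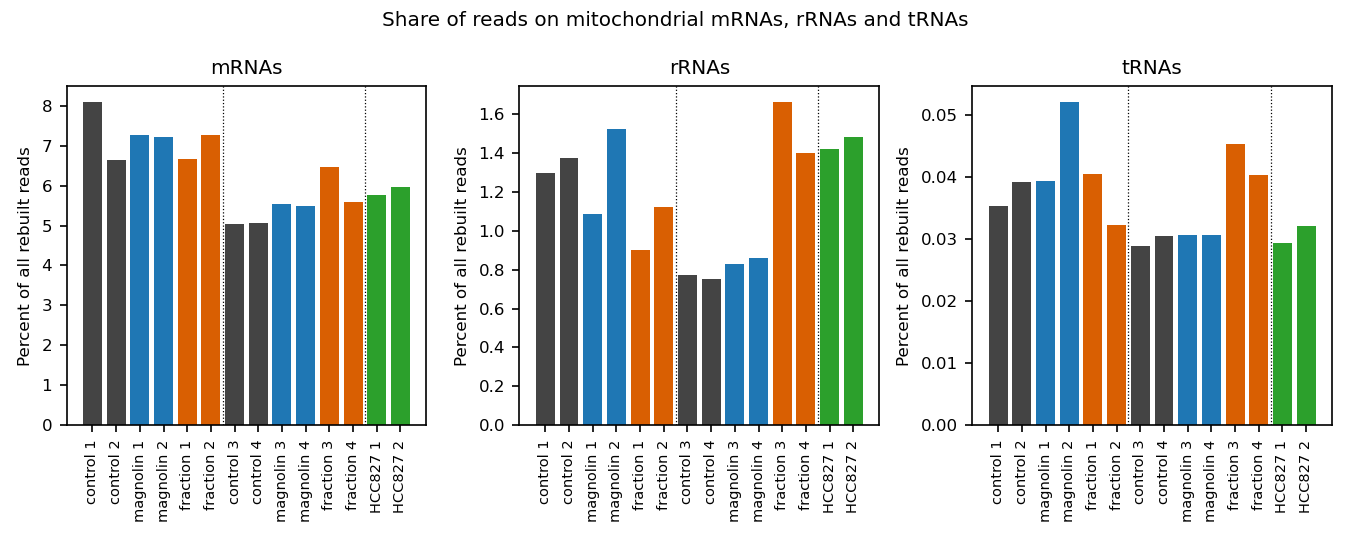
Percent of all rebuilt reads on mitochondrial mRNAs (left), rRNAs (middle) and tRNAs (right), 1 bar per library, with dotted lines between set A, set B and HCC827. In set B the 2 fraction bars are the highest of each panel's set, and in set A the fraction bars are not.

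None of 16 tests of such within-library shares and ratios passed. The exact permutation test rearranged group labels within each set (36 arrangements, two-sided), and the smallest p it can give is 0.0556, so the design cannot reach 0.05. The mitochondrial share averaged 7.29% in controls and 7.81% with the fraction (difference 0.517 points, exact p = 0.5, 0.889 after Benjamini-Hochberg adjustment over the 16), with differences of -0.73 points in set A and 1.76 points in set B. The rRNA share averaged 1.05% and 1.27% (exact p = 0.389, adjusted 0.778), and it also differed in opposite directions, by -0.325 points in set A and 0.769 points in set B. For magnolin the mitochondrial share averaged 7.49% (exact p = 0.667, adjusted 0.889). The tRNA share was the one measure at the smallest p: 0.0382% with magnolin against 0.0335% in controls (exact p = 0.0556, adjusted 0.762), higher in both sets by 0.00843 and 0.000926 points.

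Gene by gene, the fraction went with higher rRNAs, higher MT-CO1, MT-ND1, MT-ND4 and MT-ND6 and lower MT-CYB and MT-ATP6 in set B. There 14 of the 37 genes (37.8%) passed, 10 higher and 4 lower, beside 19.9% of all tested genes (8.33% higher and 11.6% lower). The test was limma on log2(FPKM + 1), at Benjamini-Hochberg adjusted p under 0.05 over all 14673 tested genes. The members' median log2 change was -0.03, beside -0.01 over all tested genes. Leaving out 1 control library lowered the count of members, and leaving out 1 fraction library raised it. The share of all tested genes moved the same way, and each such fit holds 1 library in a group. With all libraries and no filter on low values, 1 of 37 members (2.70%) passed, beside 4.75% of all tested genes. Magnolin in set B went with 1 call, the lower MT-TF, beside 0.627% of all tested genes; it was lost without any 1 of the 4 control or magnolin libraries, where 0% of all tested genes passed. Without fraction replicate 3 or 4 the count was 3, beside 1.09% or 0.987%. In set A, 0 of 35 tested members passed for the fraction or for magnolin, as did 0% of all 13103 tested genes. The libraries of a group differed far more there than in set B. Chi-square per gene between the rebuilt reads of a group's libraries was 127 in controls, 115 with magnolin and 120 with the fraction. In set B it was 3.92, 3.99 and 13.1, so the counts of the sets rest on unlike spreads. At unadjusted p under 0.05 there were 4 and 5 members in set A, and limma voom on rebuilt reads also called 0, with 1 and 2 at unadjusted p under 0.05. Here and below, counts at unadjusted p stand without the share of all tested genes at that threshold. They show no excess of members by themselves. With the replicate number as a block, set A gave 1 lower member for the fraction (MT-TE) beside 0.183% of all genes. For magnolin it gave 3 higher (MT-TY, MT-TH and MT-TL2) and 1 lower (MT-TF) beside 0.992%. Under the block the set B counts stayed at 14 and 1, beside 14.7% and 0.293% of all tested genes, and the fraction against magnolin gave 9 in place of 10, beside 8.93%. By plain overlap, both set B fraction libraries lay above both controls in 16 members and below them in 11, beside 29.2% and 32.7% of all genes; for magnolin it was 15 and 8, beside 28.4% and 23.9%. In set A it was 0 and 7 of 35 for the fraction, beside 7.92% and 7.91%, and 6 and 4 for magnolin, beside 12.7% and 13.6%. A joint fit of both sets with a term for the set called 0 of 37 members for either treatment, beside 0.00648% of 15428 genes for the fraction and 0% for magnolin, with 7 and 3 members at unadjusted p under 0.05. Voom called 0 as well (6 and 3), and so did the joint fit with the block, beside 0.156% and 0%. Without the replicate 1 libraries the joint fit called 1 member for each treatment, MT-TF, beside 1.49% of all tested genes for the fraction and 0.067% for magnolin. Without replicate 2 it called 4 for the fraction (MT-TF, MT-TM and MT-CYB lower, MT-TC higher), beside 4.22%.

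**Figure D2:**
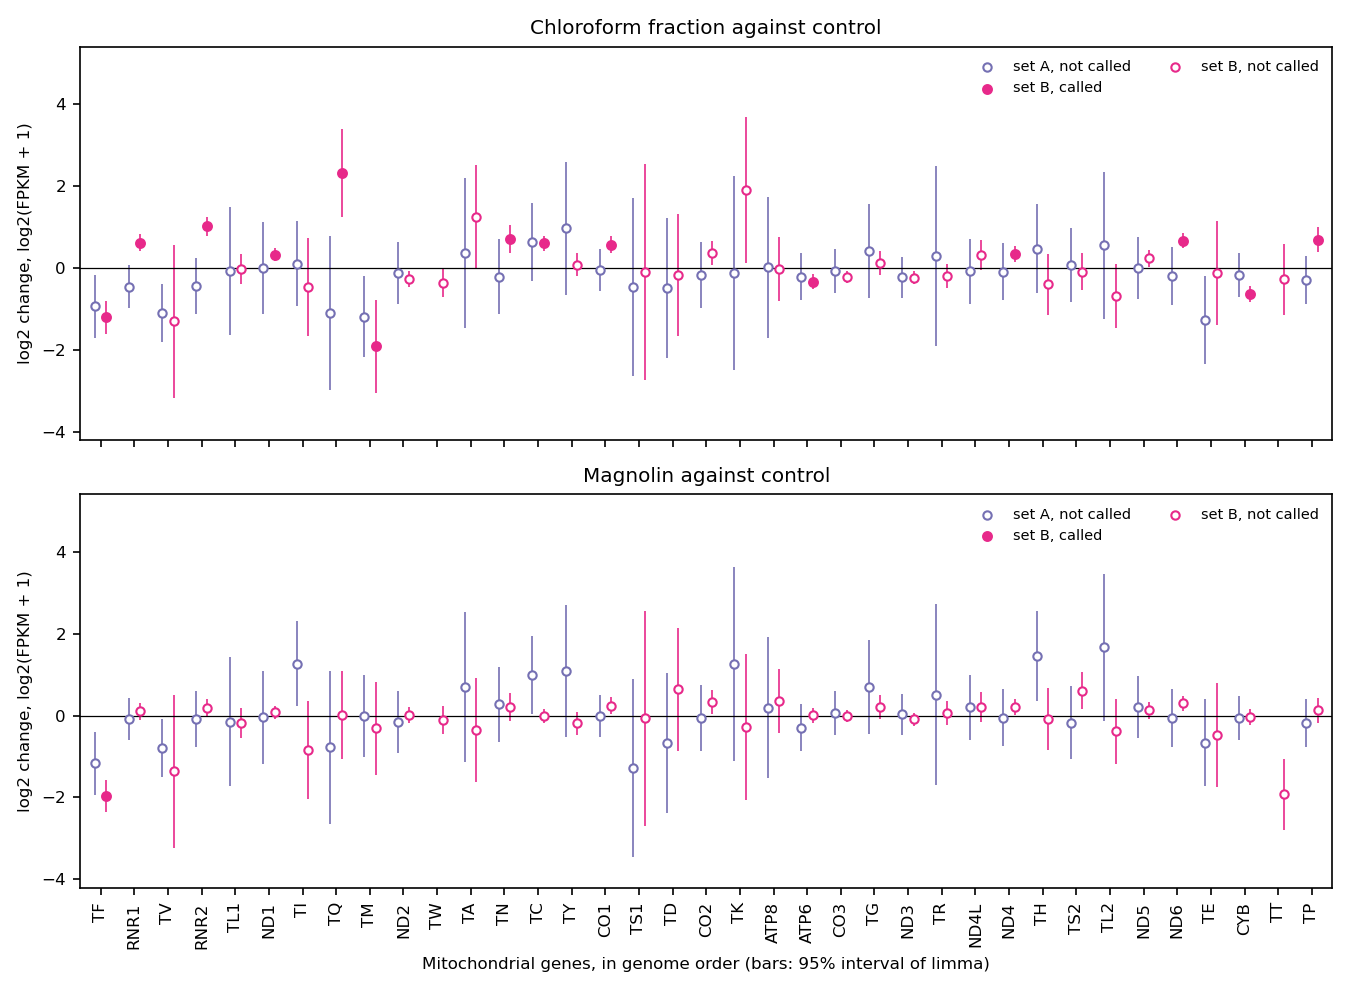
Log2 change of each of the 37 genes on the log2(FPKM + 1) scale, in genome order, for the fraction (top) and magnolin (bottom) against control, with 95% intervals from limma. Filled points passed the adjusted threshold; in the top panel the set B points of MT-RNR2 (1.02) and MT-CYB (-0.63) lie on opposite sides of 0, while all set A points are open.

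The change in set B was also set against that in set A in 1 fit with a group-by-set term. No member passed for either treatment (0 of 37, beside 0% of 15428 genes), with 6 members for the fraction and 3 for magnolin at unadjusted p under 0.05. The widest gap among the rRNAs was for MT-RNR2, whose change was 1.46 higher in set B (unadjusted p = 0.00102, adjusted p = 0.413), and MT-RNR1 differed by 1.08 (unadjusted p = 0.000418, adjusted p = 0.399). That fit holds no term for the replicate number, although same-numbered libraries of set A deviated together. With the replicate block within each set, an alternative added after the data were seen, it again called 0 of 37 members, beside 0.227% of all tested genes for the fraction and 0% for magnolin. At unadjusted p under 0.05 there were 9 and 6 members, again without the share of all tested genes at that threshold. MT-RNR2 then had an adjusted p of 0.0514 and MT-RNR1 of 0.0654 in limma, both short of the threshold.

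The 2 rRNAs are the structural RNAs of the mitochondrial ribosome: MT-RNR1 (ENSG00000211459, bases 648 to 1601) the 12S RNA of the small subunit and MT-RNR2 (ENSG00000210082, bases 1671 to 3229) the 16S RNA of the large one, on hg38. MT-RNR2 in set B stood at 4468 and 4363 FPKM in the controls, 4923 and 5138 with magnolin and 9778 and 8245 with the fraction, so both fraction libraries lay far above the other 4 (log2 change 1.02 ± 0.093 (SE), adjusted p = 0.00201). MT-RNR1 stood at 637 and 654 FPKM in the controls, 683 and 701 with magnolin and 1079 and 919 with the fraction (0.62 ± 0.088 (SE), adjusted p = 0.00705). In set A neither gene passed, and both lay the other way. MT-RNR2 was at 7373 and 7715 FPKM in the controls, 5803 and 8699 with magnolin and 4891 and 6396 with the fraction (-0.43 ± 0.28 (SE), adjusted p = 1). MT-RNR1 was at 1662 and 1718 FPKM in the controls, 1681 and 1513 with magnolin and 1294 and 1182 with the fraction (-0.45 ± 0.21 (SE), adjusted p = 1). For each gene both fraction libraries lay below both controls there. The ratio of MT-RNR2 to MT-RNR1, which scaling of a library cannot change, was 7.01 and 6.67 in the controls, 7.21 and 7.33 with magnolin and 9.06 and 8.97 with the fraction in set B and 4.43 and 4.49 in the controls, 3.45 and 5.75 with magnolin and 3.78 and 5.41 with the fraction in set A. The order of the groups thus held in set B, and in set A replicate 1 and 2 differed within each treated group. Its mean was 5.65 in controls and 6.81 with the fraction (exact permutation p = 0.167, adjusted 0.762).

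Complex I, which passes electrons from NADH to ubiquinone, has 7 subunits from this genome. MT-ND1 (ENSG00000198888, bases 3307 to 4262), next to the rRNAs, was at 1980.1 and 1993 FPKM in the controls, 2079 and 2112 with magnolin and 2616 and 2389.6 with the fraction in set B and rose with the fraction (0.33 ± 0.068 (SE), adjusted p = 0.0222). Set A held 6223 and 2828 FPKM in the controls, 4989 and 3309 with magnolin and 5258 and 3354 with the fraction (0.00 ± 0.46 (SE), adjusted p = 1), where each replicate 1 library was well above its replicate 2. MT-ND4 (ENSG00000198886, bases 10760 to 12137), a proton-pumping subunit, was at 5658 and 5720.1 FPKM in the controls, 6685 and 6484 with magnolin and 7698 and 6781 with the fraction and rose in set B (0.34 ± 0.078 (SE), adjusted p = 0.0309). Its set A values were 11172 and 6960.2 FPKM in the controls, 9169 and 7941 with magnolin and 8592 and 7986 with the fraction (-0.09 ± 0.28 (SE), adjusted p = 1), again highest in the replicate 1 libraries. MT-ND6 (ENSG00000198695, bases 14149 to 14673) is the single mRNA of the light strand and also rose in set B (0.67 ± 0.074 (SE), adjusted p = 0.00331), at 1347 and 1332 FPKM in the controls, 1656 and 1653 with magnolin and 2267 and 2019 with the fraction. The 6 set B libraries were thus ordered control, magnolin, fraction without overlap, while magnolin itself did not pass (0.30 ± 0.074 (SE), adjusted p = 0.16). In set A MT-ND6 was at 2862 and 1931 FPKM in the controls, 2105 and 2409.5 with magnolin and 1814 and 2347 with the fraction (-0.19 ± 0.29 (SE), adjusted p = 1), and the groups overlapped.

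The other 4 complex I genes did not pass in set B. MT-ND2 (ENSG00000198763, bases 4470 to 5511) was at 2255 and 2249 FPKM in the controls, 2271 and 2257 with magnolin and 1997 and 1744 with the fraction (-0.27 ± 0.079 (SE), adjusted p = 0.063), with both fraction libraries below the rest. MT-ND3 (ENSG00000198840, bases 10059 to 10404) was at 1132 and 1217 FPKM in the controls, 1082 and 1116 with magnolin and 979 and 1016 with the fraction (-0.23 ± 0.067 (SE), adjusted p = 0.0575), also with the fraction lowest. MT-ND4L (ENSG00000212907, bases 10470 to 10766) was at 3369.7 and 3696 FPKM in the controls, 4115 and 4036 with magnolin and 5183 and 3729.7 with the fraction (0.32 ± 0.15 (SE), adjusted p = 0.2), where the fraction overlapped magnolin. MT-ND5 (ENSG00000198786, bases 12337 to 14148), a proton-pumping subunit and the longest mitochondrial mRNA, was at 1788 and 1754 FPKM in the controls, 1914 and 1950.3 with magnolin and 2260.4 and 1930.0 with the fraction (0.24 ± 0.087 (SE), adjusted p = 0.11). limma voom on rebuilt reads called all 4 of these, 2 lower (MT-ND2 and MT-ND3) and 2 higher (MT-ND4L and MT-ND5). Among the 253 tested nuclear genes of the lists below, voom called 10 higher and 70 lower, against 6 and 47 in the main fit. The share of all tested genes that voom called is not given here. In set A none of the 4 passed. MT-ND2 was at 5056 and 3172 FPKM in the controls, 4132 and 3152 with magnolin and 4013 and 3399 with the fraction. MT-ND3 was at 1799 and 1903 FPKM in the controls, 1905 and 1889.8 with magnolin and 1623 and 1545 with the fraction. For MT-ND3 both fraction libraries were below the other 4 of the set, and for MT-ND2 the groups overlapped. MT-ND4L was at 4851 and 3491 FPKM in the controls, 3705 and 6055 with magnolin and 4201 and 3628 with the fraction. MT-ND5 was at 2007 and 1225 FPKM in the controls, 1590.1 and 2065 with magnolin and 1544 and 1599.9 with the fraction, and here too controls and fraction overlapped.

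MT-CYB (ENSG00000198727, bases 14747 to 15887), cytochrome b, is the only subunit of complex III that this genome encodes, and it had the largest fall of the 13 mRNAs in set B. It was at 2619.6 and 2589 FPKM in the controls, 2574 and 2519 with magnolin and 1795 and 1575 with the fraction in set B, so that the fraction libraries lay far below all others (-0.63 ± 0.079 (SE), adjusted p = 0.00493) while magnolin did not pass against control (-0.03 ± 0.079 (SE), adjusted p = 0.896). The set A values were 3913 and 3428 FPKM in the controls, 3382 and 3631 with magnolin and 3016 and 3524 with the fraction (-0.17 ± 0.22 (SE), adjusted p = 1), with overlap. Complex IV, cytochrome c oxidase, takes its 3 catalytic core subunits from here. MT-CO1 (ENSG00000198804, bases 5904 to 7445), the heme-bearing subunit, was the most abundant mitochondrial mRNA per length in the mean of every group and set, at 9026 and 9393 FPKM in the controls, 10829 and 11006 with magnolin and 14785 and 12713 with the fraction in set B, where it rose (0.57 ± 0.087 (SE), adjusted p = 0.00865). Magnolin lay between, at a change that did not pass (0.25 ± 0.087 (SE), adjusted p = 0.289). Its values in set A were 14144 and 12279.9 FPKM in the controls, 12439.6 and 13805 with magnolin and 11814 and 13865 with the fraction (-0.04 ± 0.21 (SE), adjusted p = 1), with no order of the groups.

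MT-CO2 (ENSG00000198712, bases 7586 to 8269), which takes electrons from cytochrome c, did not pass in set B at 7905 and 7733 FPKM in the controls, 9658 and 9976 with magnolin and 11419.5 and 8873 with the fraction (0.36 ± 0.12 (SE), adjusted p = 0.0866), the 2 fraction libraries lying far apart. MT-CO3 (ENSG00000198938, bases 9207 to 9990), the third core subunit, was at 6678 and 6962 FPKM in the controls, 6846 and 6791 with magnolin and 5846 and 5879 with the fraction, lower in both fraction libraries and just outside the threshold (-0.22 ± 0.059 (SE), adjusted p = 0.0514). Both were called by limma voom on rebuilt reads, the fit with more calls among the list genes, MT-CO2 higher and MT-CO3 lower. In set A MT-CO2 was at 11418 and 13576 FPKM in the controls, 10622 and 13379 with magnolin and 8255 and 14677 with the fraction, with every replicate 2 library above every replicate 1 library. MT-CO3 was at 8365 and 9903 FPKM in the controls, 10368 and 8652 with magnolin and 8622 and 8783 with the fraction in set A, and its groups overlapped.

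ATP synthase takes 2 subunits of its membrane part from 2 overlapping genes, MT-ATP8 (ENSG00000228253, bases 8366 to 8572) and MT-ATP6 (ENSG00000198899, bases 8527 to 9207), which are carried on 1 mRNA. They share 46 bases, as MT-ND4L and MT-ND4 share 7. These stretches (GENCODE release 29, hg38 mitochondrial chromosome, heavy-strand transcript) are shown because a read inside them fits both genes; capitals mark the shared bases.
MT-ATP8, last 66 bases, chrMT:8507-8572: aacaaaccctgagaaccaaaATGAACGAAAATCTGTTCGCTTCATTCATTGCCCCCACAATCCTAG
MT-ATP6, first 66 bases, chrMT:8527-8592: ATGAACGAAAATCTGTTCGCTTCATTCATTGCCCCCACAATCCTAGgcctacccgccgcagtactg
MT-ND4L, last 27 bases, chrMT:10740-10766: cataacctaaacctactccaATGCTAA
MT-ND4, first 27 bases, chrMT:10760-10786: ATGCTAAaactaatcgtcccaacaatt
MT-ATP6 was at 6461 and 6351 FPKM in the controls, 6552 and 6339.9 with magnolin and 5411 and 4824 with the fraction in set B and fell with the fraction (-0.33 ± 0.076 (SE), adjusted p = 0.0322). MT-ATP6 in set A was at 10342 and 8397 FPKM in the controls, 8047 and 7174 with magnolin and 7205 and 8995 with the fraction (-0.21 ± 0.23 (SE), adjusted p = 1), and the groups overlapped. MT-ATP8 was listed far lower, at 57.3 and 72.4 FPKM in the controls, 75.1 and 91.04 with magnolin and 89.9 and 44.4 with the fraction in set B (-0.03 ± 0.32 (SE), adjusted p = 0.964) and 45.8 and 102 FPKM in the controls, 42.1 and 144 with magnolin and 49.1 and 97.6 with the fraction in set A. Although both reading frames lie on the same RNA, the ratio of MT-ATP8 to MT-ATP6 per length was only 0.00443 to 0.0201 over the 14 libraries. For MT-ND4L to MT-ND4, the other pair shown, it was 0.404 to 0.763. By coordinates, MT-ATP6 and MT-CO3 also overlap, at base 9207, and so do MT-TC and MT-TY, at base 5826. MT-TI and MT-TQ, listed on opposite strands, overlap at bases 4329 to 4331. By sequence, 6 of the 13 mRNAs end in only 1 or 2 bases of a stop codon, which the poly(A) tail completes. The 12 heavy-strand mRNAs hold 6.28 to 16.2% G, and MT-ND6, read from the other strand, 35.6%. How reads in overlaps were counted is not given in the sources used here, and its part in the low MT-ATP8 values was not tested.

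**Figure D3:**
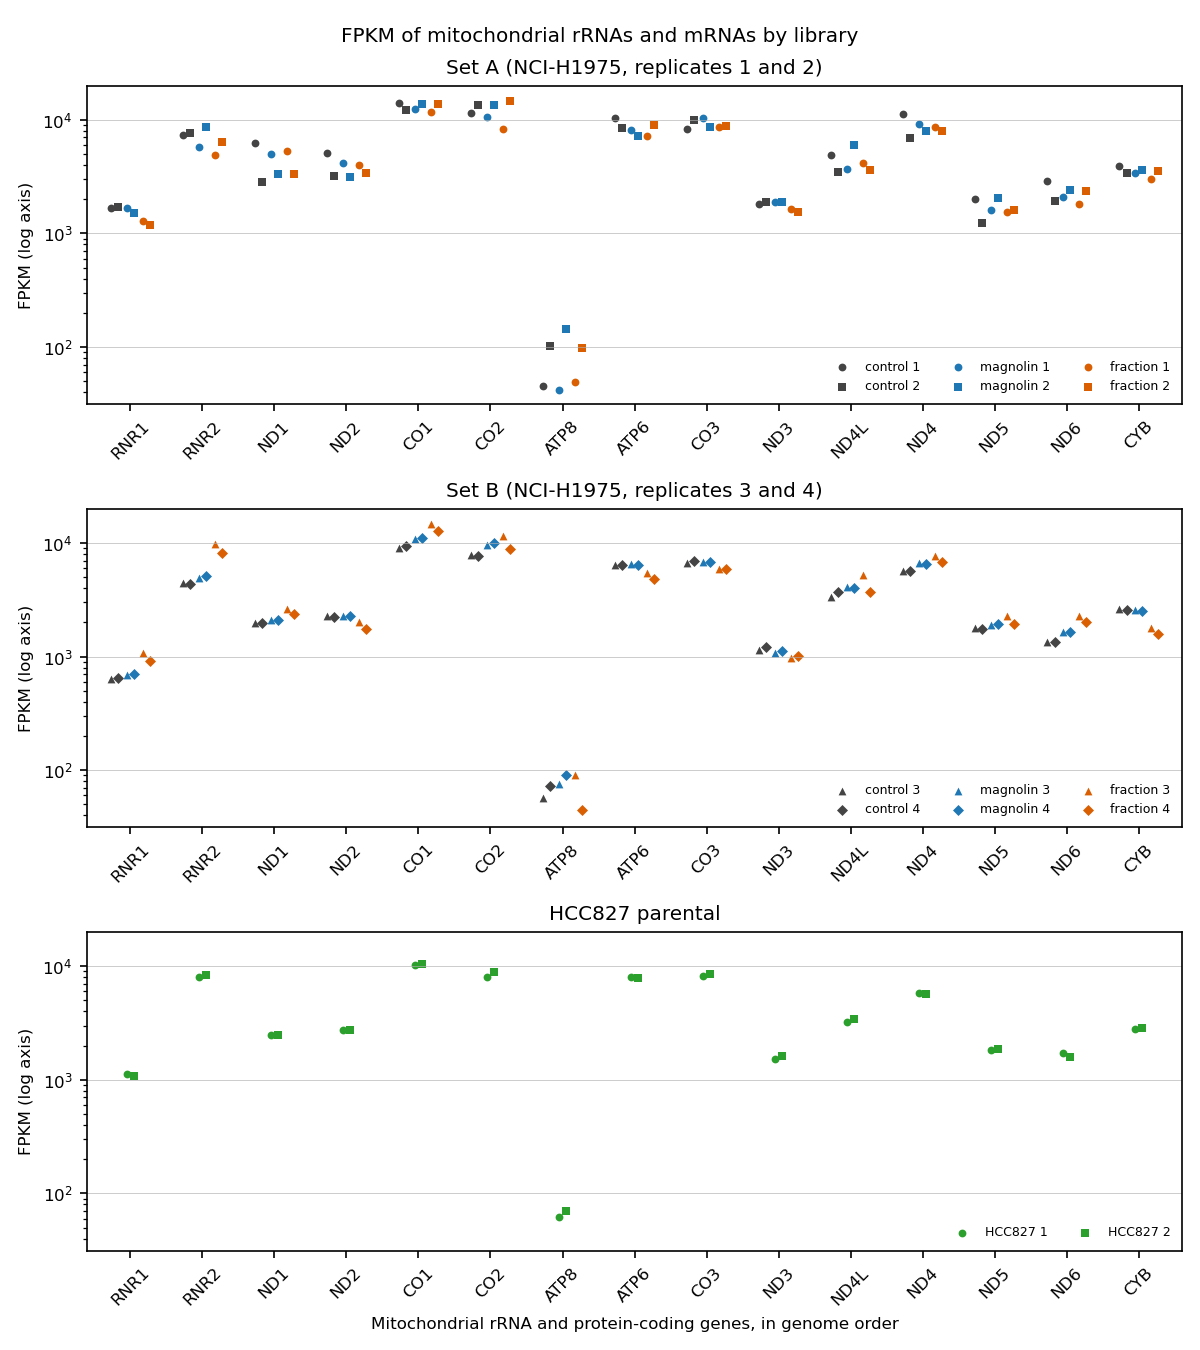
FPKM (log axis) of the 2 rRNAs and 13 mRNAs in genome order, 1 point per library, for set A (top), set B (middle) and HCC827 (bottom). MT-CO1 is at or near the top of each panel and MT-ATP8 at 42.1 to 144 FPKM at the bottom, and in set B the fraction points lie above the controls for MT-RNR2 and below them for MT-CYB.

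Because the 12 heavy-strand mRNAs come from the same precursor, their levels were also read against MT-CO1 within each library, where library scaling drops out; these ratios were chosen after the values were seen and carry no test. MT-CYB over MT-CO1 was 0.290 and 0.276 in the controls, 0.238 and 0.229 with magnolin and 0.121 and 0.124 with the fraction in set B. In set A it was 0.277 and 0.279 in the controls, 0.272 and 0.263 with magnolin and 0.255 and 0.254 with the fraction and in HCC827 0.270 and 0.276, so the 12 libraries outside the set B fraction lay between 0.229 and 0.290. MT-ATP6 over MT-CO1 was 0.716 and 0.676 in the controls, 0.605 and 0.576 with magnolin and 0.366 and 0.379 with the fraction in set B, against 0.520 to 0.731 in set A. MT-CO3 over MT-CO1 was 0.740 and 0.741 in the controls, 0.632 and 0.617 with magnolin and 0.395 and 0.462 with the fraction in set B, and MT-ND2 over MT-CO1 was 0.250 and 0.239 in the controls, 0.210 and 0.205 with magnolin and 0.135 and 0.137 with the fraction. MT-ND3 over MT-CO1 followed the same order, at 0.125 and 0.130 in the controls, 0.0999 and 0.101 with magnolin and 0.0662 and 0.0799 with the fraction. For each of these 5 genes the set B libraries stepped down from control to magnolin to fraction with no overlap, and the fraction values were the lowest of all 14 libraries. The same held for MT-ND1 over MT-CO1, at 0.219 and 0.212 in the controls, 0.192 and 0.192 with magnolin and 0.177 and 0.188 with the fraction, although MT-ND1 itself was called higher. MT-ND5 over MT-CO1 also stepped down, at 0.198 and 0.187 in the controls, 0.177 and 0.177 with magnolin and 0.153 and 0.152 with the fraction, so that 7 of the 11 heavy-strand mRNAs set against MT-CO1 did so. MT-CO1, the denominator of all these ratios, was itself called higher with the fraction in set B. MT-ND6, from the other strand, kept a narrow range against MT-CO1, at 0.142 to 0.159 in set B and 0.154 to 0.202 in set A. MT-RNR2 over MT-CO1 went the other way in set B, at 0.495 and 0.465 in the controls, 0.455 and 0.467 with magnolin and 0.661 and 0.649 with the fraction.

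**Figure D4:**
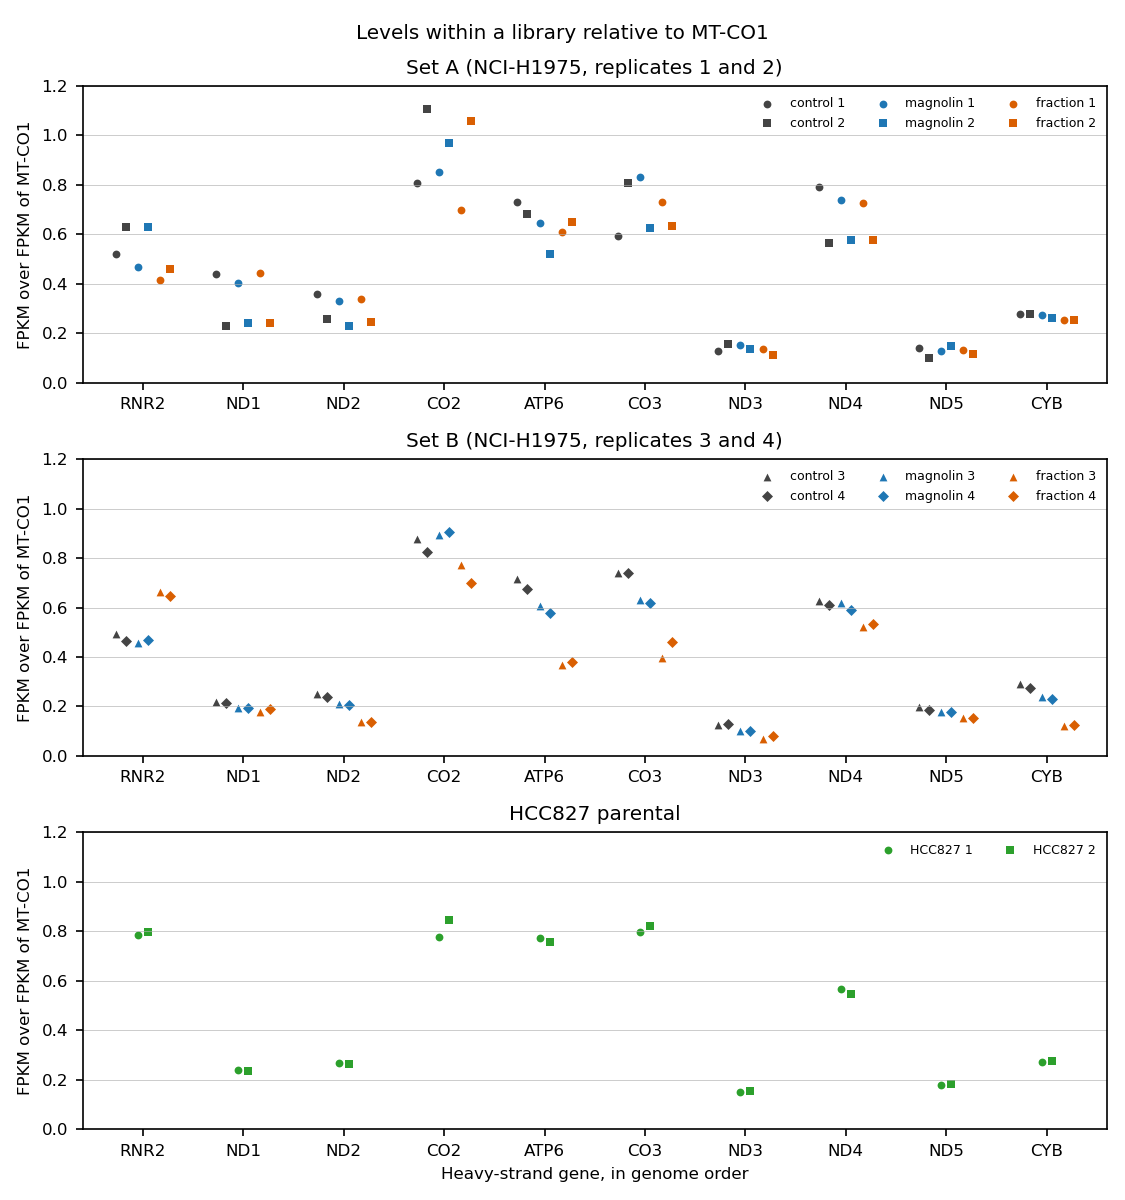
FPKM of 10 heavy-strand genes divided by FPKM of MT-CO1 in the same library, for set A (top), set B (middle) and HCC827 (bottom). In set B the fraction points of MT-ND2, MT-ATP6, MT-CO3, MT-ND3 and MT-CYB lie below control and magnolin, and in set A the replicate 1 points of MT-ND1 lie at 0.401 to 0.445 against 0.230 to 0.242 for replicate 2.

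Within set A, replicates 1 and 2 stood apart in all 3 groups in 11 of the 35 tested members, beside 49.3% of all 13103 tested genes (24.7% above and 24.6% below). In 6 genes all 3 replicate 1 libraries lay above all 3 replicate 2 libraries (MT-ND1, MT-ND2, MT-ND4, MT-TL1, MT-TY and MT-TD), and in 5 genes they lay below (MT-CO2, MT-ATP8, MT-TG, MT-TR and MT-TS2). MT-ND1 was at 4989 to 6223 FPKM in replicate 1 and at 2828 to 3354 FPKM in replicate 2, and the neighbouring tRNA gene MT-TL1 at 362 to 603 against 180.0 to 243 FPKM. These are the replicate 1 libraries with high EPCAM and KRT7; the part of that difference in the mitochondrial values was not tested.

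The light-strand genes held 1.53 to 2.03% of the mitochondrial reads. In set B their share was 1.63 and 1.63% in the controls, 1.75 and 1.73 with magnolin and 1.98 and 2.03 with the fraction, without overlap between the 3 groups. In set A it was 1.89 and 1.70% in the controls, 1.75 and 1.99 with magnolin and 1.73 and 1.81 with the fraction, with overlap, and over both sets the mean was 1.71% in controls and 1.89% with the fraction (exact permutation p = 0.222, adjusted 0.762). MT-ND6 over the median heavy-strand mRNA averaged 0.485 in controls and 0.570 with the fraction (exact permutation p = 0.333, adjusted 0.762). Whether the libraries kept the strand is not known, and a light-strand gene lies opposite heavy-strand precursor RNA. Reads from either strand therefore cannot be told apart at these 9 genes.

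The 22 tRNA genes are 59 to 75 bases long, and 3 light-strand genes took 72.3 to 87.9% of their reads: MT-TN (ENSG00000210135, bases 5657 to 5729), MT-TC (ENSG00000210140, bases 5761 to 5826) and MT-TP (ENSG00000210196, bases 15956 to 16023). Their sequences are shown with that of MT-TF (ENSG00000210049, bases 577 to 647), the first heavy-strand gene, called in all 3 comparisons of set B, and of MT-TQ (ENSG00000210107, bases 4329 to 4400), which had the largest log2 change. They come from GENCODE release 29 (hg38), are written 5′ to 3′ as DNA on the gene's own strand without the added CCA end, and carry the anticodon in capitals.
MT-TN, asparagine, chrMT:5657-5729, light-strand transcript: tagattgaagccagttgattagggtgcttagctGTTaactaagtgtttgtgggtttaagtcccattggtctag
MT-TC, cysteine, chrMT:5761-5826, light-strand transcript: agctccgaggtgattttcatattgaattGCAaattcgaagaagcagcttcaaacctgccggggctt
MT-TP, proline, chrMT:15956-16023, light-strand transcript: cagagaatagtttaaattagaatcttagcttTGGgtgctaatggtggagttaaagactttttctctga
MT-TF, phenylalanine, chrMT:577-647, heavy-strand transcript: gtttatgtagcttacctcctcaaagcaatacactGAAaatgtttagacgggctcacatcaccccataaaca
MT-TQ, glutamine, chrMT:4329-4400, light-strand transcript: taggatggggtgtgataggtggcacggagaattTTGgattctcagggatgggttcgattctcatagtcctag
Reads at a tRNA gene can come from the cut tRNA or from uncut precursor RNA, and these sources were not told apart. Changes at tRNA genes are therefore changes of reads at the gene. Per length MT-TN was the highest tRNA gene in all 7 means of group and set. It was at 1246 and 1567 FPKM in the controls, 1607 and 1613 with magnolin and 2560.0 and 2069.5 with the fraction in set B and rose (0.72 ± 0.14 (SE), adjusted p = 0.0194). MT-TC was at 762 and 817 FPKM in the controls, 789.9 and 781 with magnolin and 1149 and 1249 with the fraction and rose as well (0.60 ± 0.072 (SE), adjusted p = 0.00431), with both fraction libraries above the other 4. MT-TP, at 929 and 835 FPKM in the controls, 944 and 979.7 with magnolin and 1605 and 1271 with the fraction, rose likewise (0.70 ± 0.12 (SE), adjusted p = 0.0135). None of the 3 passed in set A. MT-TN was at 1607 and 2643 FPKM in the controls, 1913 and 3282 with magnolin and 1939 and 1642 with the fraction there. MT-TC was at 629.7 and 888 FPKM in the controls, 1262 and 1759 with magnolin and 1587 and 854 with the fraction. MT-TP was at 1675 and 1346 FPKM in the controls, 1295 and 1349 with magnolin and 1102 and 1372 with the fraction, and in all 3 the controls and the fraction overlapped.

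Low read numbers limit many of the other tRNA genes: 11 of 22 had a median under 20 reads over the 14 libraries. MT-TF had 7 and 8 reads in the controls, 1 and 1 with magnolin and 2 and 3 with the fraction in set B and was called lower with magnolin (-1.96 ± 0.16 (SE), adjusted p = 0.0182) and with the fraction (-1.20 ± 0.16 (SE), adjusted p = 0.00596). In set A it had 18 and 20 reads in the controls, 7 and 7 with magnolin and 12 and 6 with the fraction, and was called lower with magnolin under the replicate block (-1.17 ± 0.22 (SE), adjusted p = 0.024) but not without it (adjusted p = 1). Per depth, the summed reads of set B with magnolin were 0.133 times those of controls (95% exact counting interval 0.0147 to 0.571), and with the fraction 0.349 times (0.0992 to 1.01). Such intervals cover counting error only. In set A the 2 ratios were 0.410 (0.205 to 0.774) and 0.523 (0.281 to 0.939), and the interval of the set B fraction was the one that reached 1. limma voom on rebuilt reads did not call MT-TF in any comparison.

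MT-TQ had 1 and 0 reads in the controls, 0 and 1 with magnolin and 9 and 5 with the fraction in set B and was called higher with the fraction (2.32 ± 0.44 (SE), adjusted p = 0.017), a ratio of summed reads of 14.65 (95% exact counting interval 2.23 to 619.5). In set A it had 8 and 15 reads in the controls, 7 and 4 with magnolin and 11 and 1 with the fraction, with no call. MT-TM (ENSG00000210112, bases 4402 to 4469), the methionine tRNA, had 15 and 11 reads in the controls, 9 and 11 with magnolin and 1 and 5 with the fraction in set B and was called lower with the fraction (-1.91 ± 0.46 (SE), adjusted p = 0.0371), a ratio of 0.2415 (0.0813 to 0.600). In set A MT-TM had 16 and 8 reads in the controls, 9 and 12 with magnolin and 3 and 5 with the fraction, a ratio of 0.368 (0.143 to 0.847) that did not pass in limma (-1.18 ± 0.41 (SE), adjusted p = 1). Neither MT-TQ nor MT-TM was called by voom. MT-TE (ENSG00000210194, bases 14674 to 14742), the glutamate tRNA, was called lower with the fraction in set A under the replicate block (-1.27 ± 0.2 (SE), adjusted p = 0.0185), at 69 and 41 reads in the controls, 37 and 25 with magnolin and 27 and 14 with the fraction. It was not called in set B, at 29 and 27 reads in the controls, 37 and 10 with magnolin and 21 and 29 with the fraction (-0.12 ± 0.52 (SE), adjusted p = 0.897). MT-TY (ENSG00000210144, bases 5826 to 5891), MT-TH (ENSG00000210176, bases 12138 to 12206) and MT-TL2 (ENSG00000210191, bases 12266 to 12336), for tyrosine, histidine and leucine, were called higher with magnolin in set A under the block only. MT-TH had 31 and 66 reads in the controls, 108 and 124 with magnolin and 83 and 41 with the fraction in set A (1.45 ± 0.32 (SE), adjusted p = 0.0457). MT-TY had 247 and 92 reads in the controls, 391 and 223 with magnolin and 434 and 172 with the fraction (1.09 ± 0.24 (SE), adjusted p = 0.0434). MT-TL2 had 11 and 3 reads in the controls, 22 and 19 with magnolin and 18 and 4 with the fraction (1.67 ± 0.29 (SE), adjusted p = 0.0159). In set B all 3 had a negative change with magnolin that did not pass (-0.19, -0.09 and -0.39).

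Among heavy-strand tRNA genes the highest mean belonged to MT-TL1 (ENSG00000209082, bases 3230 to 3304) in every set A group and in HCC827, and in set B to MT-TR (ENSG00000210174, bases 10405 to 10469) in controls and MT-TG (ENSG00000210164, bases 9991 to 10058) in both treated groups. In set B MT-TG was at 205 and 188 FPKM in the controls, 201 and 256 with magnolin and 218 and 212 with the fraction, MT-TR at 206 and 214 FPKM in the controls, 222 and 217 with magnolin and 209.7 and 163 with the fraction. MT-TL1 was at 160.5 and 167 FPKM in the controls, 134 and 155 with magnolin and 186 and 138 with the fraction, and none of the 3 passed in any comparison with all libraries. Without fraction replicate 3, MT-TR was called lower with the fraction. At the other end, MT-TA (ENSG00000210127, bases 5587 to 5655), MT-TS1 (ENSG00000210151, bases 7446 to 7514), MT-TK (ENSG00000210156, bases 8295 to 8364) and MT-TW (ENSG00000210117, bases 5512 to 5579) had at most 26 reads in any library. MT-TT (ENSG00000210195, bases 15888 to 15953) had at most 13 reads in an NCI-H1975 library and 0 in both magnolin and both fraction libraries of set A; it and MT-TW were below the filter in set A and the only members not tested there. In set B MT-TT had 8 and 13 reads in the controls, 3 and 1 with magnolin and 9 and 7 with the fraction, and it was called in the fraction against magnolin alone, but not with the replicate block or by voom. With all libraries of a set and the deposited scaling, MT-TA, MT-TS1, MT-TK and MT-TW gave no call in limma with or without the block, nor did the remaining heavy-strand genes MT-TV, MT-TI, MT-TD and MT-TS2. Of these 8 genes, MT-TA, MT-TK, MT-TV, MT-TI and MT-TS2 were called in set B in at least 1 fit that left out a library. MT-TV and MT-TI were also called in set A with the block on FPKM rescaled to nuclear reads. By strand, 4 of 8 light-strand tRNAs were called higher and none lower with the fraction in set B. Of 14 heavy-strand tRNAs 2 were called lower and none higher, beside 8.33% higher and 11.6% lower over all tested genes. The median log2 changes were 0.65 and -0.32. Both heavy-strand calls (MT-TF and MT-TM) and the light-strand call MT-TQ had at most 15 reads in any set B library and were not called by voom. The difference between the strands was not tested.

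**Figure D5:**
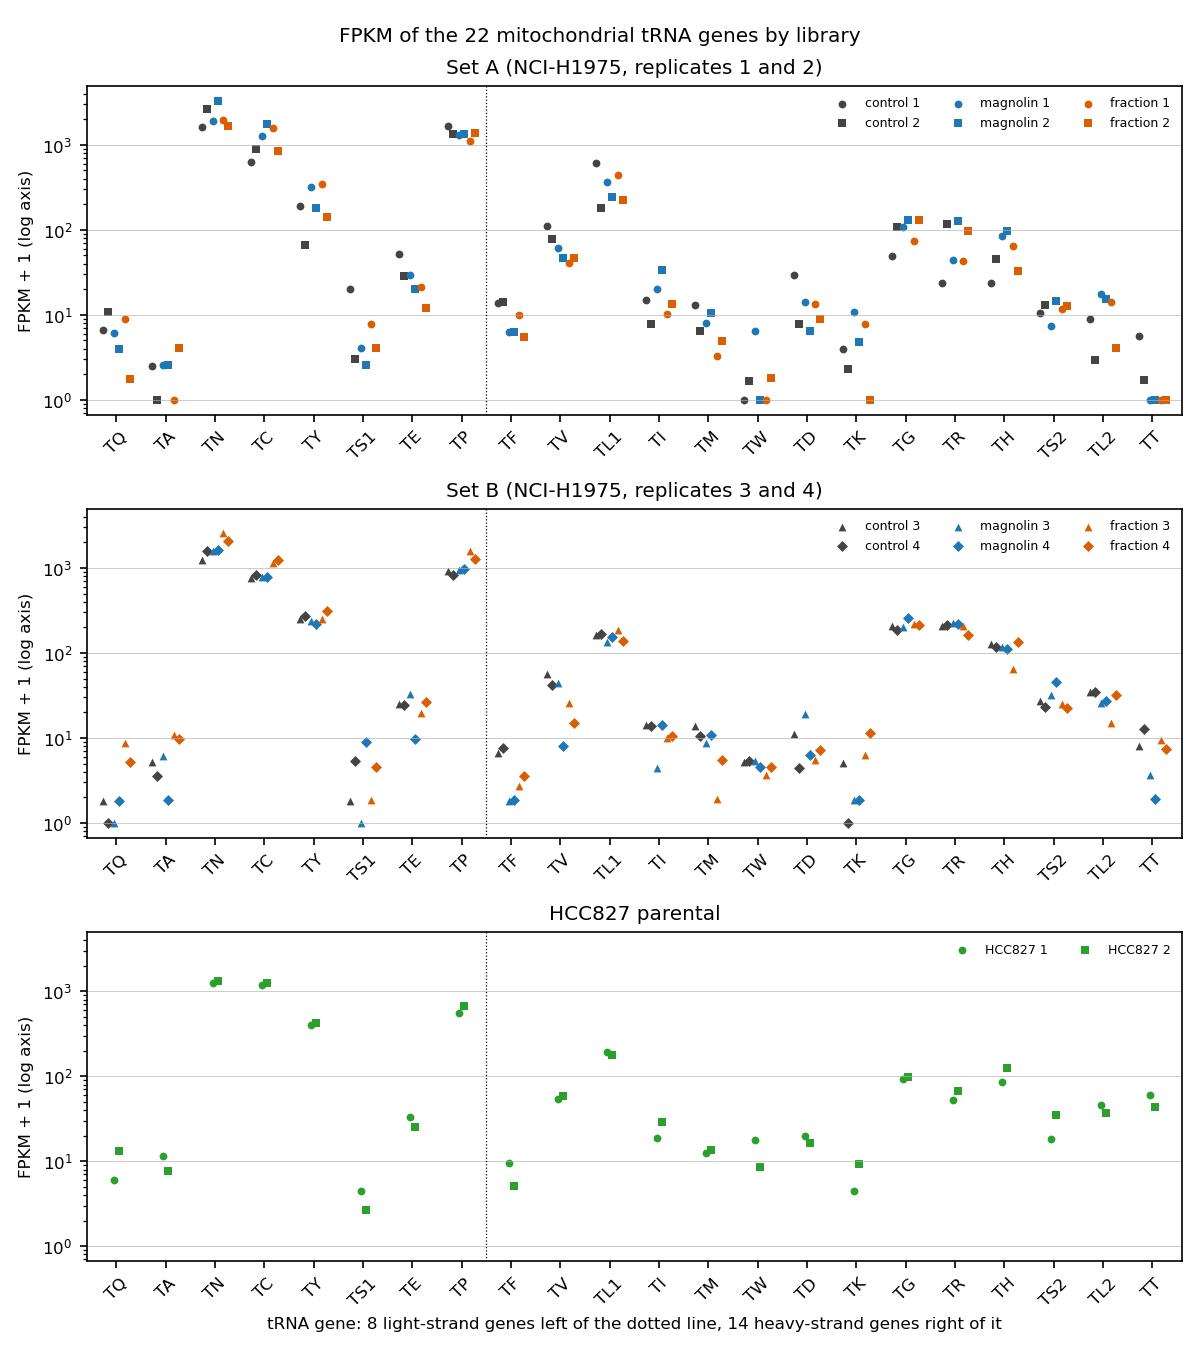
FPKM + 1 (log axis) of the 22 tRNA genes, 1 point per library, for set A (top), set B (middle) and HCC827 (bottom), with light-strand genes left of the dotted line. MT-TN, MT-TC and MT-TP are the highest rows of each panel, and MT-TT is at 42.0 and 58.8 FPKM in HCC827 but at most 11.7 FPKM in NCI-H1975.

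Set directly against magnolin in set B, the fraction gave 8 higher and 2 lower members, beside 14.9% of all 14673 tested genes (5.55% higher and 9.36% lower). Higher were MT-RNR1 (0.52), MT-RNR2 (0.84), MT-ND6 (0.37), MT-TC (0.61), MT-TP (0.57), MT-TF (0.76), MT-TQ (2.31) and MT-TT (1.65, all log2 changes). MT-CYB (-0.60 ± 0.079 (SE), adjusted p = 0.0101) and MT-ATP6 (-0.34 ± 0.076 (SE), adjusted p = 0.0374) were lower. When the tables were rescaled by median ratios over genes above 1 FPKM, the members' split became 11 higher and 1 lower, and that of all tested genes went from 814 higher and 1374 lower to 1001 and 976. In set A 0 of 35 passed, beside 0% of 13103 genes (2 members at unadjusted p under 0.05, and 0 by voom, with 0 at unadjusted p under 0.05), and in the joint fit 0 of 37, beside 0% of 15428 (3, and 0 by voom with 2). Without control replicate 3 or 4 the set B count was 5, beside 6.65% or 6.52% of all tested genes. Without magnolin replicate 3 or 4 it was 3 or 1, beside 2.04% or 1.57%. Without fraction replicate 3 or 4 it was 16 or 19, beside 21.3% or 12.7%. These comparisons share their libraries with those against control and are not independent of them.

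Nuclear copies of mitochondrial genes can take reads from the true genes, since they are nearly identical. By symbol 407 copies were listed, 129 had any read, and the 3 with most reads held 96.9% of the copies' reads, all on hg38 chromosome 1: MTND2P28 (629640 to 630683), MTCO1P12 (631074 to 632616) and MTATP6P1 (633696 to 634376). Over aligned bases they matched their mitochondrial genes at 98.4, 98.7 and 98.5% of positions. MTND2P28 held 4.91 to 7.31% of the reads of itself and MT-ND2 together, MTATP6P1 2.61 to 6.12% of the pair with MT-ATP6, and MTCO1P12 0.117 to 0.237% of the pair with MT-CO1. All copies together took 0.0290 to 0.0651% of a library's reads. The copy of MT-ATP8, MTATP8P1, matched at 97.6% and was listed at 0 reads in every library. How reads that fit several places were counted is not given in the sources used here, so values of the copies and of these 3 members are uncertain.

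The nuclear genes that make, process and use mitochondrial RNA were taken as 13 lists of 260 genes, of which 257 were in the tables and 253 were tested in set B. With the fraction in set B, 6 rose and 47 fell, beside 8.33% higher and 11.6% lower over all tested genes. With the replicate block the counts were 1 and 39, and all genes then had 6.02% higher and 8.68% lower. In the transcription list 1 of 9 fell: TFAM went from 16.7 ± 0.484 to 13.1 ± 0.493 FPKM (mean ± SD, n = 2; log2 change -0.33 ± 0.082 (SE), adjusted p = 0.0409). POLRMT went from 28.2 ± 0.455 to 34.1 ± 7.46 FPKM (0.25 ± 0.15 (SE), adjusted p = 0.285) and TFB2M from 23.1 ± 1.39 to 19.1 ± 0.811 FPKM (-0.26 ± 0.081 (SE), adjusted p = 0.0754), and neither passed. The elongation factor TEFM went from 2.92 ± 0.369 to 2.48 ± 0.426 FPKM (-0.17 ± 0.15 (SE), adjusted p = 0.47) and did not pass. In the RNA stability list 1 of 9 rose, LRPPRC, from 27.8 ± 1.45 to 38.7 ± 4.70 FPKM (0.46 ± 0.1 (SE), adjusted p = 0.0269), while its partner SLIRP did not pass (13.6 ± 1.02 to 11.6 ± 1.88 FPKM, -0.21 ± 0.12 (SE), adjusted p = 0.282). Under the replicate block neither TFAM nor LRPPRC was called (limma adjusted p = 0.0742 and 0.0530).

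Of 10 RNA cleavage genes 3 fell, among them FASTKD5, which acts on mRNA ends that no tRNA marks, from 18.9 ± 1.64 to 13.5 ± 0.359 FPKM (-0.45 ± 0.085 (SE), adjusted p = 0.0169). Of 12 DNA replication genes 2 rose and 2 fell: the polymerase accessory subunit POLG2 rose from 6.16 ± 0.400 to 9.75 ± 1.36 FPKM, and the single-strand binding protein SSBP1 fell from 19.97 ± 2.02 to 13.7 ± 0.258 FPKM. Of 24 tRNA and rRNA modification genes 1 rose and 1 fell, of 12 translation factors 1 rose and 1 fell, of 16 tested aminoacyl-tRNA synthetases 1 fell, and of 7 tested nuclear regulators 1 rose. These counts and the next stand beside 8.33% higher and 11.6% lower over all tested genes, and no list was tested against those shares. Of 81 tested proteins of the mitochondrial ribosome 14 fell and none rose, with a median log2 change of -0.17; MRPL11 fell from 47.6 ± 2.98 to 28.6 ± 2.72 FPKM (-0.72 ± 0.09 (SE), adjusted p = 0.00493) and MRPL33 from 17.2 ± 0.594 to 11.3 ± 1.29 FPKM.

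The nuclear-encoded subunits of the same complexes were lower in part. Of 73 tested subunits of complexes I, III, IV and ATP synthase 24 fell and none rose in set B with the fraction, beside the 11.6% of all tested genes that were lower. In complex I 8 of 36 fell (median log2 change -0.21), such as NDUFA1, from 44.1 ± 0.216 to 26.9 ± 0.888 FPKM (-0.70 ± 0.065 (SE), adjusted p = 0.00218), and NDUFS5, from 148 ± 0.0351 to 99.6 ± 1.12 FPKM. In complex III 3 of 9 fell (median -0.35), among them the iron-sulfur protein UQCRFS1, from 26.1 ± 2.69 to 18.2 ± 1.79 FPKM. In complex IV 4 of 11 fell (median -0.41), COX6B1 from 53.1 ± 2.43 to 37.7 ± 4.27 FPKM. In ATP synthase 9 of 17 fell (median -0.42), ATP5MC1 from 20.8 ± 0.0533 to 10.8 ± 3.25 FPKM (-0.92 ± 0.18 (SE), adjusted p = 0.0185) and ATP5PB from 46.8 ± 0.159 to 29.9 ± 0.669 FPKM (-0.63 ± 0.066 (SE), adjusted p = 0.00293). Of the 13 mitochondrial mRNAs 4 rose and 2 fell in the same fit, with a median of 0.24; the 2 kinds of subunit were not tested against each other. With magnolin in set B 0 of the 253 were called (21 at unadjusted p under 0.05; voom called 1, lower). In set A 0 of 251 were called for the fraction or magnolin by limma (0 and 1 at unadjusted p under 0.05) or by voom. The joint fit also called 0 of 253 for either (13 and 3, and 0 by voom).

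In parental HCC827 cells, whose values were normalized apart so that no test was made against NCI-H1975, the mitochondrial share of reads was 7.20 and 7.48%, with 19.7 and 19.8% of these on rRNAs. Means and spread of the 2 libraries gave the order MT-CO1 (10301 and 10452 FPKM), then MT-CO2 (7994 and 8833), MT-CO3 (8222 and 8589) and MT-RNR2 (8083 and 8316). Neighbours among the last 3 overlapped between libraries. MT-ATP6 followed at 7962 and 7912, MT-ND4 at 5817 and 5706, MT-ND4L at 3221 and 3408, MT-CYB at 2784 and 2885 and MT-ND2 at 2741 and 2754 FPKM. The low end held MT-ND1 (2461 and 2458), MT-ND5 (1844 and 1886), MT-ND6 (1722 and 1576), MT-ND3 (1536 and 1627), MT-RNR1 (1129.6 and 1091) and MT-ATP8 (62.4 and 70.03 FPKM). MT-ND6 and MT-ND3 overlapped there. The ratio of MT-RNR2 to MT-RNR1 was 7.16 and 7.62, and MT-CO3 over MT-CO1 was 0.798 and 0.822. Of the tRNAs, MT-TN was at 1238 and 1335 FPKM, MT-TC at 1169 and 1237 and MT-TP at 551 and 663, so MT-TN and MT-TC lay close together here. MT-TT, the threonine tRNA, had 64 and 48 reads in HCC827 against 0 to 13 in the 12 NCI-H1975 libraries.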

How the data were processed

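RNA-seq values of 14 libraries were used. The authors deposited FPKM per gene in 3 tables; per the submitters' processing notes, reads were placed on hg38. The aligner, the counter and the choice of poly(A) selection or rRNA removal were not given in the sources used here. Per the labels' protocols the strand setting is not settled, since they name an ordinary and a strand-specific preparation without saying which was used. Another 2 columns of values carry names found in no label and stayed out of every step. Reads were rebuilt as FPKM times gene length, in steps of 1 read (within 0.05 of a whole number for 100% of values up to 2000 reads), and give the depth and the shares. They give counting error only, and a value of 0 allows up to 3 reads.

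Changes were fitted with limma 3.58.1 (R 4.3.3, empirical Bayes with a mean trend) on log2(FPKM + 1), so a fold change of a low gene is understated. Genes at 1 FPKM or more in 2 or more libraries were tested, and p-values were adjusted by Benjamini-Hochberg over all tested genes at a threshold of 0.05. Sets A and B were fitted apart and jointly with a set term. Shares and ratios were tested by exact permutation within sets (36 arrangements). Deviations of libraries with the same replicate number from their group means correlated at 0.290 to 0.840 over all replicates (12 correlations), and the numbers were treated as pairing. These deviations hold the difference between set A and set B, which libraries of the same number share. Within set A alone the range was 0.742 to 0.781. Within set B alone it was -0.0279 to 0.0299, so pairing has no such footing there. Alternatives were another pseudocount (0.1), no filter, other scalings, limma voom on rebuilt reads, the replicate block and leaving out libraries. The fit was also run on simulated reads of independent libraries with no effect of the replicate number, and its outcome is not given here. That setting differs from set A, where same-numbered libraries deviated together, so the simulation cannot vouch for the fit there. All 37 genes are accounted for; named one by one are mRNAs, rRNAs and tRNAs that were called or at the extremes of their strand, the 3 nuclear copies with most reads, and up to 4 called genes per list. Members and lists were chosen with earlier results of these data known. Sequences are from GENCODE release 29 transcripts (GRCh38).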

Additional observations from a re-analysis of the deposited data

Results flagged for a closer look

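In 135 groups of 4 NCI-H1975 libraries (shares, ratios and single genes), 6 held a library whose gap to the nearest other over the group's range exceeded Dixon's 95% critical value for 4 samples; chance gives about 1 in 20. These groups mix set A and set B, which were normalized separately. MT-TL1, the leucine tRNA gene beside MT-ND1, was at 603.1 FPKM in control replicate 1 and at 160.5 to 180.0 FPKM in the other 3 controls. MT-TE was at 50.99 FPKM in the same library against 23.28 to 27.75 FPKM. Control replicate 1 is also a library with high EPCAM, and the part of that in these 2 values was not tested. MT-TI was at 6.768 FPKM in control replicate 2 and at 12.94 to 14.04 FPKM in the others. MT-TA was at 5.122 FPKM in magnolin replicate 3 and at 0.8753 to 1.547 FPKM in the others, and it never had over 12 reads. In magnolin replicate 2 the light-strand share of mitochondrial reads was 1.992% against 1.732 to 1.747% in the others, and the ratio of rRNA to mRNA summed FPKM was 0.1387 against 0.09951 to 0.1037.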

How the results depend on the processing

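With the replicate block the counts of members called in set A were 1 for the fraction and 4 for magnolin, and with the block on FPKM rescaled to nuclear reads they were 2 and 5, beside 0.328% and 1.27% of all tested genes. The block left the set B counts at 14 and 1, and moved the fraction against magnolin from 10 to 9. With no filter on low values, set B gave 1 for the fraction, 0 for magnolin and 0 for the fraction against magnolin, beside 4.75%, 0% and 2.23%; limma voom on rebuilt reads gave 0 for magnolin. Leaving out 1 library, the set B counts ranged from 5 to 21 for the fraction, 0 to 3 for magnolin and 1 to 19 for the fraction against magnolin, while 5.07 to 22.4%, 0 to 1.09% and 1.57 to 21.3% of all tested genes passed. The joint counts, leaving out 1 replicate number, ranged from 0 to 4 for the fraction and 0 to 1 for magnolin, beside 0 to 4.22% and 0 to 0.067%.

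Without 1 replicate number, the differences from control ranged across 0 for several shares, in percentage points. For the fraction the mitochondrial share ranged from -0.0265 to 1.061 and the mRNA share from -0.2215 to 0.7998. For magnolin the mitochondrial share ranged from -0.2421 to 0.6478, the mRNA share from -0.1783 to 0.5244, the rRNA share from -0.06625 to 0.1165 and the light-strand share from -0.01673 to 0.2002. Also for magnolin, MT-ND6 over the heavy-strand mRNA median ranged from -0.00404 to 0.01351, the rRNA to mRNA ratio from -0.002498 to 0.002041 and MT-RNR2 over MT-RNR1 from -0.277 to 0.8448. The sign turned without replicate 2 for the 4 shares of magnolin, the 2 of the fraction and MT-RNR2 over MT-RNR1, without replicate 4 for the MT-ND6 ratio, and without replicate 1 or 3 for the rRNA to mRNA ratio. Of the values of single called members under all alternatives, 242 kept their call, 104 lost it and 0 changed sign. All these calls are from set B, and in each the libraries of the groups compared did not overlap. Leaving out a library therefore could not change the sign. The cause of the turned signs and lost calls was not tested. Low reads limit the tRNA genes: 11 of 22 had a median under 20 reads.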
